A study of Mus musculus with 6 samples.

Results

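Astrocyte genes were followed in RNA-seq of the prefrontal cortex (PFC) from mice exposed to early life stress (ELS). The set held 38 genes that are enriched in astrocytes, chosen by symbol from the 22000 rows of the count table. A gene was tested if it reached at least 1 CPM (counts scaled to the library total) in every mouse of either group, and all 38 passed this filter, as did 13185 genes in all. The study compared 3 control mice with 3 ELS mice, all wild-type C57BL/6N males dissected at 9 weeks of age, with 1 library per mouse. ELS was imposed by social isolation, in which mice were housed singly under a filter cap from weaning, while control males shared a cage without one. Mice were littermates of the same mothers, went through behavioral tests, and stayed in their housing condition until dissection. The model therefore bears on males kept alone after weaning, and single housing and the filter cap cannot be told apart.

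Astrocytes are the glial cells that clear glutamate from synapses, return it to neurons as glutamine, buffer potassium and water, supply lipids, and form a network coupled by gap junctions. Under injury or inflammation they become reactive, a state known for a rise of the intermediate filament protein GFAP. Several genes of the set are not restricted to astrocytes. Kcnip4, a potassium channel accessory subunit, is mainly neuronal, Apoe and Cst3 are also made by microglia, and Vim by endothelial cells. The libraries come from whole tissue, so fewer astrocytes and less RNA per astrocyte cannot be told apart.

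Total counts ran from 28405795 to 35241743 per mouse, and single genes of the set had from 272 to 145148 reads in a mouse. The 38 genes together took 1.72% to 1.86% of all counts. CPM values were scaled by the TMM method, with factors from 0.992 to 1.02. Summed over the markers of each other cell type, CPM overlapped between the groups for neurons, oligodendrocytes, oligodendrocyte precursors, microglia, endothelial cells, pericytes, choroid plexus, ependyma, striatal neurons and blood, and no marker present in the table was at 0 in every mouse. The striatal markers, of which 5 of 6 were in the table, summed to 183, 200.3 and 335 CPM in control mice 1 to 3 and to 309.5, 203 and 227 CPM in ELS mice 1 to 3. Control mouse 3 and ELS mouse 1 thus stood above the others in striatal RNA, and also in blood markers, at 85.2 and 79.7 CPM against 51.0 to 64.4 CPM in the other mice. Summed over 6 defining astrocyte markers, the level was 5483 to 5580 CPM in the controls and 4843 to 5637 CPM in ELS mice, lowest in ELS mouse 1. Slc1a2 made most of that sum, and the other 5 markers summed to 1369, 1276 and 1475 CPM in the controls and to 1403, 1324 and 1446 CPM in ELS mice, where ELS mouse 1 lay within the range of the rest. Of 40 markers of other cell types that were tested, 3 had an unadjusted p under 0.05, or 7.5% against 4.23% of all genes, and none passed the adjusted test. These were the endothelial Cldn5 and the pericyte genes Pdgfrb and Kcnj8, with log2 fold changes of 0.31, 0.28 and 0.37, and an adjusted p of 0.970 for Cldn5 and 1.0 for the others in the edgeR fit. The groups did not overlap for Kcnj8 and for the microglial Cx3cr1, both higher in ELS mice, or 5% of the 40 against 8.28% of all genes. Over the whole lists, log2 fold changes ran from -0.0059 for Pecam1 to 0.31 for Cldn5 in 4 endothelial markers, with 3 above 0. They ran from 0.028 for Rgs5 to 0.37 for Kcnj8 in 3 pericyte markers, all above 0, and from -0.027 for P2ry12 to 0.13 for Cx3cr1 in 6 microglial markers, with 5 above 0. The part of vascular cells in the level of Vim was not tested. Control mouse 3 had the most oligodendrocyte marker RNA, 7922 CPM against 6009 to 7005 CPM elsewhere.

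**Figure D1:**
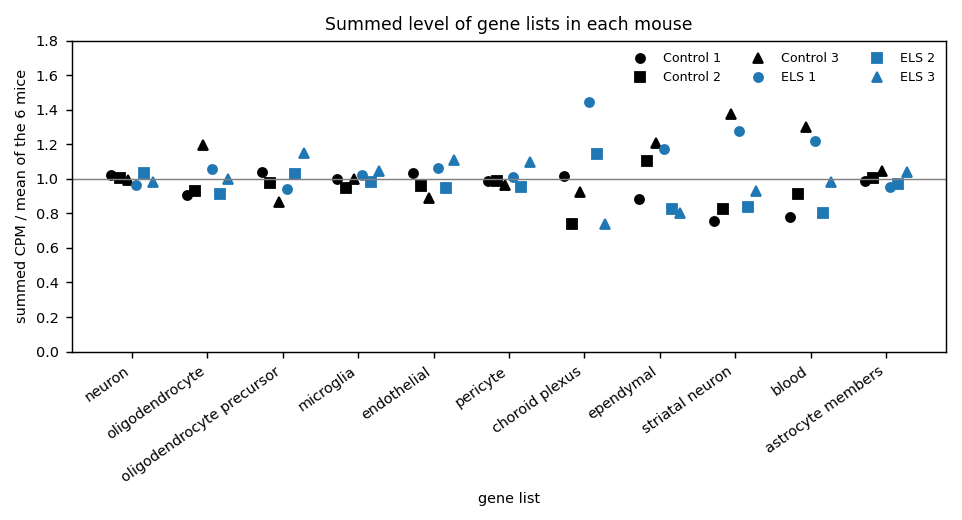
Summed CPM of the marker list of each other cell type and of the 38 astrocyte genes in each mouse, divided by the mean of the 6 mice. The list of 6 defining astrocyte markers is not shown. Black symbols are control mice and blue symbols ELS mice. Control mouse 3 and ELS mouse 1 lie highest in the striatal and blood lists, while the sum of the 38 astrocyte genes lies close to 1 in every mouse.

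None of the 38 astrocyte genes was called a differentially expressed gene (DEG) between ELS and control mice. In the quasi-likelihood test of edgeR, a DEG needed an adjusted p under 0.05 with a log2 fold change of more than 0.3 in either direction. Of all 13185 genes tested, 0.0152% were called, so a count of 0 among 38 genes lies near the background. The log2 fold changes ran from -0.19 for Gjb6 to 0.21 for Sox9, with standard errors from 0.0616 to 0.109. At an unadjusted p under 0.05 there were 2 of the 38 genes, or 5.26%, against 4.23% of all genes tested. The 2 were Gjb6 and Sox9, and this count was 0 without control mouse 2 or ELS mouse 3, against 3.11% and 2.77% of all genes. It was 1 without control mouse 3 or ELS mouse 2, against 11.7% and 3.88%. DESeq2 and limma-voom likewise called 0 of the 38 genes, against 0.137% and 0.0152% of all genes, and each had 2 of them at an unadjusted p under 0.05. The smallest adjusted p among the 38 rounded to 1.0 in edgeR, DESeq2 and limma-voom alike. Without control mouse 3, edgeR called 0.219% of all genes tested and still 0 of the 38.

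The intervals of these genes were narrow. For 35 of the 38, or 92.1%, the 95% interval of the log2 fold change lay entirely within 0.3 of 0, against 61.4% of all genes tested. The exceptions were Gjb6, whose interval reached down to -0.34, Slc7a10, which reached -0.33, and Sox9, which reached 0.41. The standard error had a median of 0.0729 among the 38 genes and of 0.0897 among all genes, and the spread between mice of a group had a median SD of 0.0945 and 0.113 on the log2 scale. Each of the 38 genes had at least 272 reads in every mouse, whereas the genes tested went down to levels near 1 CPM. The part of level in these differences was not tested. The median log2 fold change was -0.015 for the set and -0.0046 for all genes tested. Values below 0 were found for 24 of 38 genes, or 63.2%, against 52.5% of all genes. With upper-quartile scaling these shares were 52.6% and 46.8%, and without control mouse 3 they were 44.7% and 49.8%. The other way, they were 76.3% and 52.8% without control mouse 1, 73.7% and 53.4% without control mouse 2, and also 73.7% and 53.4% without ELS mouse 3. The share of values below 0 thus moved with the scaling and with single mice.

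**Figure D2:**
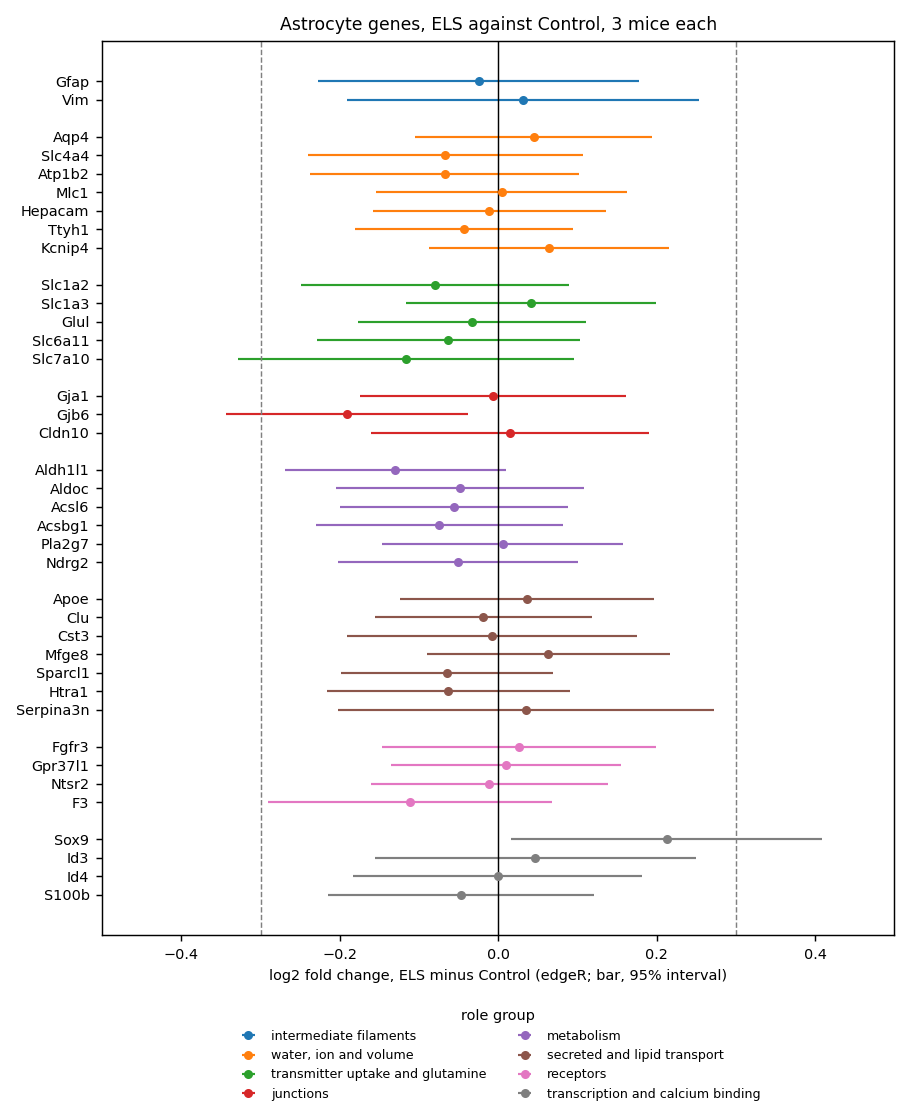
Log2 fold change of each of the 38 genes, ELS minus control, from edgeR, with its 95% interval as a bar, coloured by role group. The dashed lines mark 0.3 on either side of 0; all bars but those of Gjb6, Slc7a10 and Sox9 stay between them, and all but those of Gjb6 and Sox9 cross 0.

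Gjb6, a junction gene with the lowest log2 fold change of the set, encodes connexin 30, which forms gap junctions between astrocytes together with connexin 43. On GRCm38 it spans chromosome 14, 57123303 to 57133611, minus strand. Its level was 70.6, 81.2 and 77.3 CPM in control mice 1 to 3 and 67.3, 68.0 and 65.3 CPM in ELS mice 1 to 3. The highest ELS mouse lay below the lowest control mouse, and the ELS mice lay close together while control mouse 1 came within a few CPM of them. The control mean was 76.4 ± 5.39 CPM and the ELS mean 66.9 ± 1.38 CPM (SD, n = 3 each), and the log2 fold change was -0.19. It had a standard error of 0.0706, an unadjusted p of 0.0186 and an adjusted p of 1.0 in the edgeR fit. With each mouse left out the log2 fold change ran from -0.24 to -0.14, and the adjusted p from 0.349, without control mouse 3, to 1.0. The unadjusted p was 0.086 without control mouse 2 and 0.070 without ELS mouse 3. Gja1, the connexin 43 gene, had 253, 226 and 268 CPM in the controls and 253, 232 and 259 CPM in ELS mice. Its groups overlapped throughout, and the log2 fold change was -0.0069 with a 95% interval from -0.17 to 0.16. Cldn10, a claudin gene of tight junctions, had a log2 fold change of 0.015. A test of the difference between the connexin genes was not made.

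Aldh1l1, which encodes the folate enzyme 10-formyltetrahydrofolate dehydrogenase and is used to mark nearly all astrocytes, was the other gene whose groups did not overlap. Its level was 78.1, 76.7 and 79.9 CPM in the controls and 71.9, 68.6 and 74.0 CPM in ELS mice, so each ELS mouse was below each control mouse. The means were 78.2 ± 1.59 CPM and 71.5 ± 2.69 CPM (SD, n = 3 each). The log2 fold change was -0.13, with a 95% interval from -0.27 to 0.0097 that includes 0. The within-group spread of 0.0437 on the log2 scale was the smallest of the 38 genes. Other genes overlap 13.4% of the Aldh1l1 exons, 11% by an antisense transcript, and the strand setting of the counting is not stated in the sources used here. Gjb6 and Aldh1l1 made 2 of 38 genes with groups that did not overlap, or 5.26%, against 8.28% of all genes tested. Both lay lower in ELS mice, as did 4.47% of all genes.

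The promoters of both genes are shown because theirs were the only groups that did not overlap, and that of Serpina3n because it was the only one with a full glucocorticoid response element. Each is the window of 250 bases before the RefSeq start on GRCm38.p6, written 5′ to 3′ along the gene's strand, with matched motifs in capitals. The Gjb6 window is chr14:57133612-57133861 (minus strand), the Aldh1l1 window chr6:90550543-90550792 (plus strand) and the Serpina3n window chr12:104406458-104406707 (plus strand). The Aldh1l1 window lies inside that gene as annotated in GENCODE M21, where it runs from 90486427 to 90600203, so the 2 annotations differ in its start.
Gjb6: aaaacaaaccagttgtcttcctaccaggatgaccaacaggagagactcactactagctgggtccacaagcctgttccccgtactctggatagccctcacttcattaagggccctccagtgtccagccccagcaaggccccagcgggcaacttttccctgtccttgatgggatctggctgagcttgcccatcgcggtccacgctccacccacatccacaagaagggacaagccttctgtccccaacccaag
Aldh1l1: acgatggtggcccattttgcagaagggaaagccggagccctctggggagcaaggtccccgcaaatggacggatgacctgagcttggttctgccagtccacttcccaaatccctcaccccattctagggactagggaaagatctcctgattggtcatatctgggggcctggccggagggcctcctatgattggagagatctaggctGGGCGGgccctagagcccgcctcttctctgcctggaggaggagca
Serpina3n: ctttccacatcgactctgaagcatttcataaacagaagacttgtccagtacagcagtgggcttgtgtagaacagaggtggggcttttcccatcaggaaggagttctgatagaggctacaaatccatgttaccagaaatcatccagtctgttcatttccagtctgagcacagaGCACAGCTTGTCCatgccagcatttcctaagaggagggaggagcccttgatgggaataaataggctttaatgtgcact
Of the 38 genes, 33 had at least 1 such window and 44 windows in all, as some genes have several starts. Aqp4, Atp1b2, Clu, Sox9 and Sparcl1 were not matched. The motifs searched were the palindromic glucocorticoid response element, GNACA and TGTNC with 3 bases between, the STAT site TTCNNNGAA, and the Sp1 GC box GGGCGG, each on both strands and counted without regard to overlap. The first was found in 1 of 44 windows, or 2.27%, against 0.387% of the windows of all genes. With 1 window found, that share cannot be told from the share of all genes, and no motif share was tested. STAT sites were found in 5 windows, or 11.4% against 7.02%, those of Acsbg1, Aldoc, Ntsr2, Pla2g7 and Slc1a3. GC boxes were found in 23 windows, or 52.3% against 32.7%, including that of Aldh1l1. Median GC content was 57.8% in the windows of the set and 52.4% in all. None of these motifs was found in the Gjb6 window.

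The intermediate filament genes, the usual marks of reactive astrocytes, had levels that overlapped between the groups. Gfap had 122, 108 and 130.5 CPM in the controls and 134, 107 and 113 CPM in ELS mice, and ELS mouse 1 was the highest of all. The log2 fold change was -0.025, its standard error 0.0934 and its adjusted p 1.0 in the edgeR fit, with a 95% interval that spans 14.6% lower to 13.1% higher in ELS mice. Vim, the vimentin gene, had 36.0, 30.5 and 36.0 CPM in the controls and 39.7, 30.5 and 34.5 CPM in ELS mice. It followed Gfap in that ELS mouse 1 was highest. Its within-group spread of 0.166 was the largest of the set, and its log2 fold change was 0.031. Serpina3n, a secreted protease inhibitor that rises in reactive astrocytes, had the lowest level of the set, with 10.6, 9.63 and 10.7 CPM in the controls and 9.90, 11.6 and 10.05 CPM in ELS mice. ELS mouse 2 was the highest, and the log2 fold change of 0.035 had a 95% interval from -0.20 to 0.27. Serpina3n has close paralogs in the mouse, and reads shared with them would not be counted as uniquely mapped.

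Of 35 other genes known for reactive astrocytes, 24 passed the filter, 0 were called, and their median log2 fold change was 0.035 against -0.0046 for all genes. The 11 that were not tested included Lcn2, with 12 reads over all 6 mice, and C3, with 32. At an unadjusted p under 0.05 there were 2 of 24, or 8.33%, against 4.23% of all genes. Iigp1, an interferon-induced GTPase gene, had 1.72, 1.27 and 1.57 CPM in the controls and 3.27, 1.802 and 3.75 CPM in ELS mice. The lowest ELS mouse lay above the highest control mouse, at levels near the filter. The log2 fold change was 0.94, its standard error 0.274 and its adjusted p 0.861 in the edgeR fit. Ptgs2, the cyclooxygenase gene that cortical neurons also use, had 19.7, 15.9 and 15.8 CPM in the controls and 15.8, 13.2 and 11.8 CPM in ELS mice. Its groups overlapped narrowly, and its log2 fold change was -0.33 with an adjusted p of 1.0 in the edgeR fit. Of the 24 intervals, 3 lay within 0.3 of 0, so these genes were bounded less tightly than the 38.

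Transmitter uptake genes spanned from some of the highest to some of the lowest levels of the set. Slc1a2 encodes GLT-1, the main glutamate transporter of the forebrain. Its control mean was 4151 ± 148 CPM and its ELS mean 3928 ± 422 CPM (SD, n = 3 each). The single values were 4140, 4304 and 4008 CPM in the controls and 3440 CPM, 4152 CPM and 4191 CPM in ELS mice, so the lower ELS mean came from ELS mouse 1. The log2 fold change of -0.080 turned to 0.0051 without that mouse. Slc1a3, which encodes the other astrocytic glutamate transporter, GLAST, had 759, 724 and 837 CPM in the controls and 787, 756 and 846 CPM in ELS mice, with overlapping groups. Its log2 fold change was 0.042. Glul, the glutamine synthetase gene, had a log2 fold change of -0.033 and Slc6a11, the GABA transporter GAT-3 gene, one of -0.063. Slc7a10, a transporter of small neutral amino acids such as D-serine, had 28.1, 32.4 and 33.3 CPM in the controls and 25.7, 28.6 and 32.2 CPM in ELS mice. Its groups overlapped and the log2 fold change was -0.12, which was -0.043 without ELS mouse 1, -0.070 without control mouse 3, -0.19 without control mouse 1 and -0.20 without ELS mouse 3. Another gene on the opposite strand overlaps 17.9% of its exons. Of these 5 genes 4 had a value below 0, or 80% against 52.5% of all genes, and none passed the test. Without ELS mouse 1 this was 2 of 5, Glul and Slc7a10, as Slc6a11 was then at 0.0097.

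Water, ion and volume genes showed no called change either. Aqp4 encodes the water channel of astrocytic endfeet. It had 158, 141 and 160 CPM in the controls and 158, 161 and 154 CPM in ELS mice, and control mouse 2 alone was lower. The log2 fold change was 0.045, with a 95% interval from -0.10 to 0.19. Atp1b2, a sodium pump beta subunit gene, had 389, 405 and 361 CPM in the controls and 329, 386 and 387 CPM in ELS mice. Here too ELS mouse 1 was the lowest, and the log2 fold change was -0.068. Slc4a4, a sodium bicarbonate cotransporter gene, had a log2 fold change of -0.067. Mlc1 and Hepacam, whose proteins form a complex at endfeet and are linked to volume control, had 0.0042 and -0.011. Ttyh1, of an anion channel family, had -0.043 and Kcnip4 0.064. All 7 intervals lay within 0.3 of 0.

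Metabolic genes gave 5 of 6 values below 0, Aldh1l1 included, or 83.3% against 52.5% of all genes, and none passed the test. Aldoc, the brain aldolase gene of glycolysis, had a log2 fold change of -0.048, and the fatty acid activating enzymes Acsl6 and Acsbg1 had -0.055 and -0.075. Ndrg2 had -0.051, and Pla2g7, a lipoprotein-associated phospholipase gene, 0.0054. Over the 6 genes the median was -0.053 against -0.0046 over all genes tested. All 6 intervals lay within 0.3 of 0. With a mouse left out the value of Aldoc ran from -0.10 to -0.0036 and that of Ndrg2 from -0.099 to -0.0011, each nearest to 0 without control mouse 3. Acsl6 ran from -0.10 to -0.026 and Acsbg1 from -0.14 to -0.034, each lowest without ELS mouse 3.

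Genes for secreted and lipid transport proteins held both the highest and the lowest level of the set per length. Scaled to kb of exon in GENCODE M21, control means ran from 4.98 ± 0.273 CPM per kb for Serpina3n to 828 ± 96.1 CPM per kb for Cst3, a range of 166-fold. Cst3, the cystatin C gene, Glul, Apoe, Sparcl1 and Slc1a2 followed in that order, at 828, 712, 608, 596 and 316 CPM per kb. The SD was 96.1 CPM per kb for Cst3, 40.1 for Glul and 48.9 for Apoe, and Apoe and Sparcl1 differed by less than the SD of Apoe. In ELS mice the same genes had 823, 696, 624, 570 and 299 CPM per kb. Sparcl1, whose product hevin acts in synapse formation, had 1793, 1704 and 1754 CPM in the controls and 1644, 1619 and 1757 CPM in ELS mice. Only ELS mouse 3 reached the control range, and the log2 fold change was -0.065. Apoe, the lipid carrier, and Clu, another apolipoprotein gene, had log2 fold changes of 0.036 and -0.019. Mfge8, a bridging protein for phagocytosis, had 0.063, Htra1, a serine protease gene, -0.063 and Cst3 -0.0083.

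**Figure D3:**
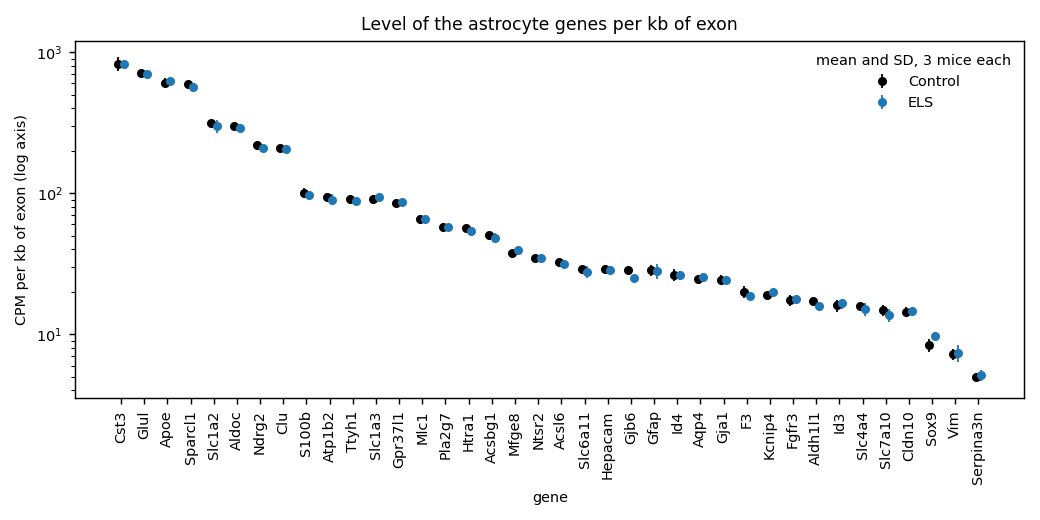
Mean level and SD of the 38 genes in CPM per kb of exon on a log axis, ordered by the control mean, with control mice in black and ELS mice in blue, 3 each. From Cst3 at 828 to Serpina3n at 4.98 CPM per kb in control mice, the ELS value sits beside the control value for each gene.

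Receptor genes other than F3 were close to 0. The log2 fold changes were 0.027 for Fgfr3, a fibroblast growth factor receptor gene, 0.0097 for Gpr37l1, an orphan receptor gene, and -0.011 for Ntsr2, a neurotensin receptor gene. F3, the tissue factor gene, had 48.1, 47.2 and 56.4 CPM in the controls and 48.0, 43.9 and 48.5 CPM in ELS mice. Control mouse 3 stood above the rest, and the log2 fold change of -0.11 was -0.028 without it. Fgfr3 shares 13.9% of its exons with a transcript on the opposite strand.

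Sox9, a transcription factor gene that keeps astrocyte identity, had the largest positive value of the set. On GRCm38 it spans chromosome 11, 112782224 to 112787760, plus strand. Its level was 38.1, 35.4 and 30.6 CPM in the controls and 37.3, 40.4 and 42.9 CPM in ELS mice. The groups overlapped at control mouse 1 and ELS mouse 1, with means of 34.7 ± 3.81 CPM and 40.2 ± 2.77 CPM (SD, n = 3 each). The log2 fold change was 0.21, its standard error 0.0904, its unadjusted p 0.0358 and its adjusted p 1.0 in the edgeR fit. Without control mouse 3 the log2 fold change was 0.13, and over the alternatives the adjusted p ran from 0.543 to 1.0. In edgeR the unadjusted p was 0.056 without control mouse 2, 0.121 without control mouse 3, 0.078 without ELS mouse 2 and 0.144 without ELS mouse 3. It was 0.012 without control mouse 1 and 0.024 without ELS mouse 1. Id3 and Id4, inhibitors of DNA binding that act in glial differentiation, had log2 fold changes of 0.047 and -0.00056. S100b, a calcium-binding protein gene that oligodendrocytes also use, had 136, 149 and 160 CPM in the controls and 139, 138 and 154 CPM in ELS mice. Its groups overlapped, and the log2 fold change was -0.047.

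**Figure D4:**
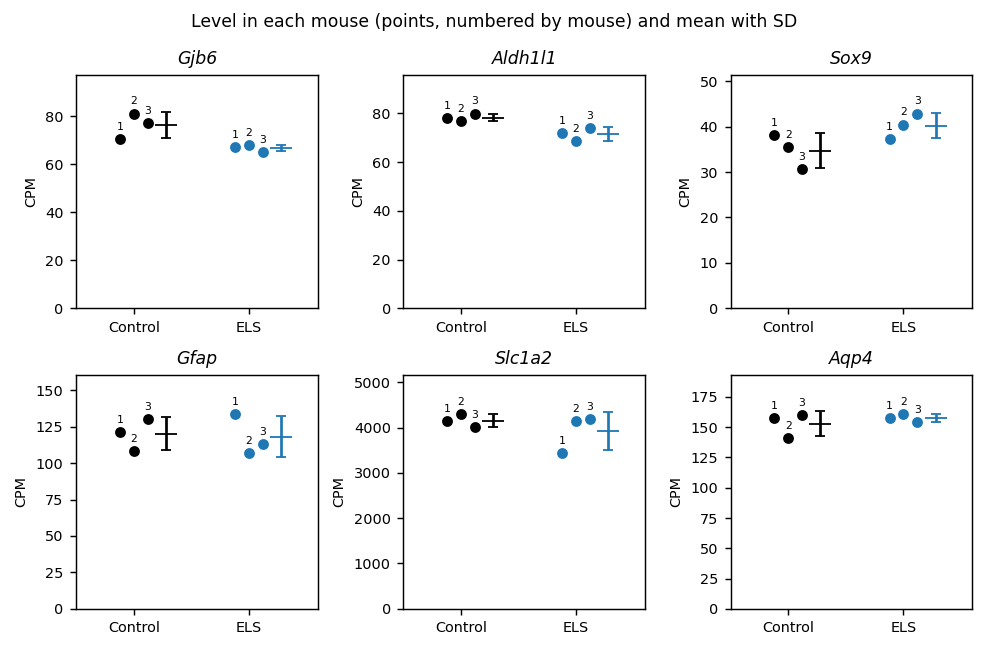
CPM of 6 astrocyte genes in each mouse, numbered by mouse, with the mean and SD of the 3 mice at the right of each group, on axes that start at 0. Gjb6 and Aldh1l1 have no overlap between the groups, Sox9 overlaps at mouse 1 of each group, and in Slc1a2 the low point is ELS mouse 1 at 3440 CPM.

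Across single mice, many genes of the set were high in the same animals. Control mouse 3 was the highest mouse for 16 of the 38 genes and ELS mouse 3 for 12, which made 28 in all. ELS mouse 2 was above the 6-mouse mean of a gene in 6 genes only, whereas control mouse 3 was above it in 34 and ELS mouse 3 in 30. The median deviation from that mean was 0.069 on the log2 scale in control mouse 3, 0.058 in ELS mouse 3 and -0.067 in ELS mouse 2. A mouse of each group was thus high. ELS mouse 1 parted the genes: it was highest for Gfap and Vim and lowest for 9 genes, namely Slc1a2, Slc4a4, Slc6a11, Slc7a10, Atp1b2, Ttyh1, Acsl6, Ndrg2 and Ntsr2. Its Slc1a2 level lay 0.23 below the 6-mouse mean and its Vim level 0.21 above it, on the log2 scale. ELS mouse 1 and control mouse 3 are also the libraries with high striatal and blood markers, and control mouse 3 had the most oligodendrocyte marker RNA. The part of those markers in the values of either mouse was not tested. Sox9 was the furthest below its mean in control mouse 3, by 0.28, and 3 other genes, Atp1b2, Ntsr2 and Slc1a2, were also below theirs there, by at most 0.055.

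**Figure D5:**
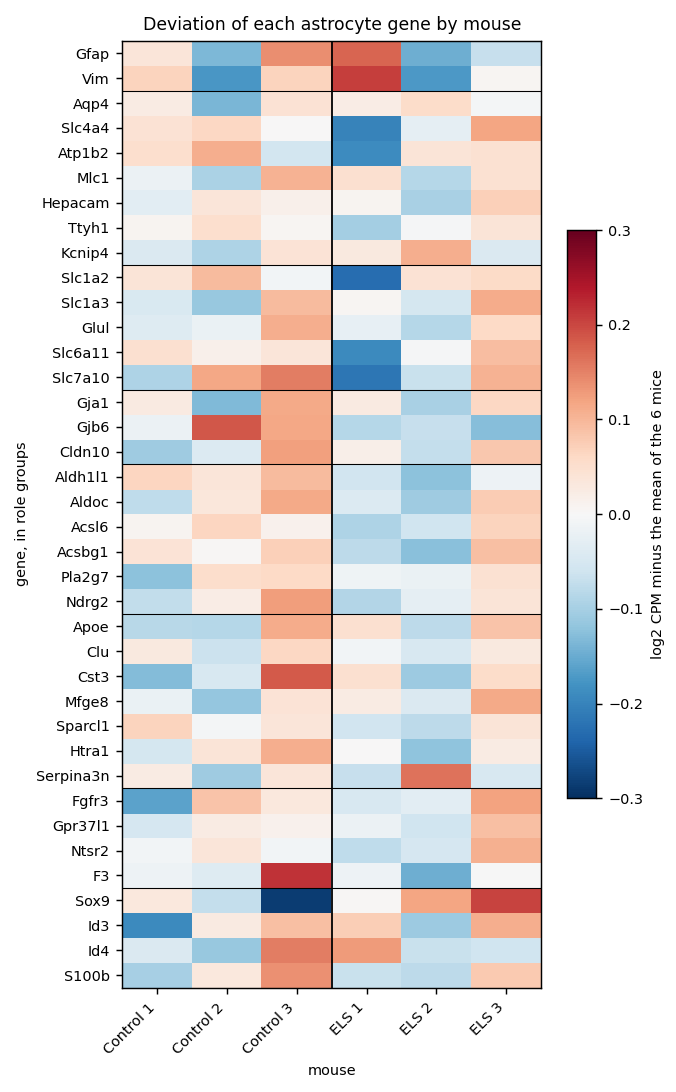
Deviation of each of the 38 genes in each mouse from the mean of the 6 mice, in log2 CPM, with genes in role groups and a line between control and ELS mice. Columns of control mouse 3 and ELS mouse 3 are mostly red, that of ELS mouse 2 mostly blue, and in ELS mouse 1 Gfap and Vim are red where Slc1a2, Slc4a4, Slc6a11, Slc7a10 and Atp1b2 are blue.

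A further list of 50 genes used by astrocytes, all of them tested, gave the same count of 0 called, with a median log2 fold change of -0.0028. At an unadjusted p under 0.05 there were 4 of 50, or 8%, of which 2 were higher and 2 lower in ELS mice, against 4.23% of all genes. Mertk, a phagocytic receptor gene, had 52.9, 59.5 and 56.4 CPM in the controls and 42.4, 47.4 and 51.0 CPM in ELS mice. All ELS mice were below all control mice, and the log2 fold change was -0.26, its standard error 0.0815 and its adjusted p 0.931 in the edgeR fit. Daam2, a formin gene of Wnt signaling, had 103, 128 and 111 CPM in the controls and 96.7, 99.5 and 99.8 CPM in ELS mice, and a log2 fold change of -0.21. Sox2, a transcription factor gene shared with progenitors, had 35.5, 38.2 and 34.4 CPM in the controls and 40.6, 40.2 and 39.5 CPM in ELS mice, and a log2 fold change of 0.15. Hes5, a Notch target gene, had 9.97, 14.2 and 11.2 CPM in the controls and 13.8, 14.4 and 16.9 CPM in ELS mice, and a log2 fold change of 0.35. The groups overlapped for Hes5. They did not overlap for Mertk, Daam2, Sox2 and Nfia, a nuclear factor I gene with 60.0, 60.5 and 60.3 CPM in the controls and 61.2, 64.9 and 62.5 CPM in ELS mice. These 4 of 50 genes made 8%, against 8.28% of all genes, and the adjusted p of Daam2, Sox2, Hes5 and Nfia was 1.0 in the edgeR fit.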

How the data were processed

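Poly(A) RNA of the PFC was sequenced for 3 control mice and 3 ELS mice. After trimming (Trimmomatic), the authors mapped the reads to mm10 by STAR (2.7.1a in the submitters' processing notes, another version in the paper), counted uniquely mapped reads with HTSeq (0.9.1 in those notes) and deposited raw counts per gene symbol, which are neither normalized nor pooled. The labels name a TruSeq stranded kit and the paper a KAPA stranded kit, and the strand setting of the counting is not given in the sources used here. The ELS columns are headed by an abbreviation for social isolation, and each was assigned to the ELS mouse of that number.

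The analysis used edgeR 4.0.16 (R 4.3.3). A gene was kept if each mouse of either group had 1 CPM or more, TMM factors computed, and the quasi-likelihood model fitted to all 13185 genes with the group alone as its term, with Benjamini-Hochberg adjustment over them. Standard errors and 95% intervals came from the F statistic. Log2 CPM used a prior count of 2. Replicates are separate mice, and counts of any pair within a group varied beyond counting noise (chi-square over its degrees of freedom, 6.70 or more). An exact permutation test of 3 against 3 mice could not go below p = 0.1 and was not used. Precision is limited by 3 mice per group and, for genes of low counts, also by depth.

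Exon lengths, positions and overlaps were taken from GENCODE M21 on GRCm38 (mm10), where 89.2% of symbols and all 38 genes of the set were found. Promoters were taken from RefSeq on GRCm38.p6. The set, its role groups, the other lists and the thresholds were chosen with earlier results of these data known. All 38 genes are accounted for. Single values are given for genes with an unadjusted p under 0.05, groups that did not overlap, the largest absolute log2 fold change of a role group, and 8 identity markers (Gfap, Aqp4, Aldh1l1, Slc1a2, Slc1a3, Gja1, S100b and Sox9); those of Serpina3n were added after its values were seen. Genes of the further and reactive lists are named at an unadjusted p under 0.05, and Lcn2 and C3 as examples of genes that did not pass the filter. Nfia and the markers of other cell types were named after their values were seen. Alternatives were DESeq2 1.42.0, limma-voom (limma 3.58.1), other scalings and filters, a block for replicate number, and each mouse left out in turn.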

Additional observations from a re-analysis of the deposited data

How the results depend on the processing

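The count of 0 called genes held for the 38 astrocyte genes, the further astrocyte genes and the reactive genes under DESeq2, limma-voom, DESeq2 size factors, upper-quartile scaling, both other filters, the replicate block and each fit without 1 mouse. The count of called genes in the whole table was 2 and rose to 18 with DESeq2, to 4 when any gene with 1 read was tested and to 7 with the replicate block, and ran from 1 to 29 with a mouse left out, the 29 without control mouse 3. With both striatum-rich libraries left out, an alternative chosen after seeing the data, it was 27, still with 0 of the 38. Mice that share a number in both groups deviated from their group means with r = -0.12 (number 1), 0.21 (number 2) and -0.031 (number 3). The numbers were not taken as pairs in the main fit. The labels do not name litters, and these correlations cannot show whether mice of the same number shared one. The replicate block changed no call among the 38. The median log2 fold change of the 38 genes ran from -0.046 to 0.011 with a mouse left out, was above 0 without control mouse 3 or ELS mouse 2, and was 0.017 with both striatum-rich libraries left out. The number of the 38 genes whose groups did not overlap ran from 2 to 9 with a mouse left out, when fewer values have to be apart (6 without control mouse 1, 4 without control mouse 3 and 9 without ELS mouse 3, or 15.8%, 10.5% and 23.7%, against 17.6%, 29.5% and 14.8% of all genes). It was 6, or 15.8% against 39.2%, with both striatum-rich libraries left out. Direction was kept for 15 of the 38 genes in all planned settings. Upper-quartile scaling turned Cst3 to 0.0030, Gja1 to 0.0043, Hepacam to 0.00010 and Id4 to 0.011. Id4 also turned to 0.0010 with DESeq2, 0.0010 with limma-voom, 0.0011 with DESeq2 size factors, 0.0018 with any gene of 1 read tested and 0.0012 with the replicate block. With a mouse left out, 23 genes crossed 0, with ranges of -0.13 to 0.039 for Gfap, -0.074 to 0.12 for Vim, -0.0093 to 0.076 for Aqp4, -0.15 to 0.0088 for Slc4a4, -0.11 to 0.0036 for Atp1b2, -0.041 to 0.058 for Mlc1, -0.051 to 0.030 for Hepacam, -0.13 to 0.0051 for Slc1a2, -0.0047 to 0.10 for Slc1a3, -0.073 to 0.012 for Glul, -0.13 to 0.0097 for Slc6a11, -0.071 to 0.048 for Gja1, -0.034 to 0.082 for Cldn10, -0.052 to 0.035 for Pla2g7, -0.055 to 0.0064 for Clu, -0.073 to 0.088 for Cst3, -0.047 to 0.076 for Serpina3n, -0.043 to 0.078 for Fgfr3, -0.035 to 0.039 for Gpr37l1, -0.071 to 0.021 for Ntsr2, -0.033 to 0.11 for Id3, -0.070 to 0.080 for Id4 and -0.11 to 0.0097 for S100b. With 3 mice per group, differences of this size could not be told from 0.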
